A study of Mus musculus with 16 samples.

Results

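The genes described here encode protein kinase A (PKA), the cAMP-dependent kinase: the regulatory subunits Prkar2b, Prkar2a, Prkar1a and Prkar1b and the catalytic subunits Prkaca and Prkacb. They were taken by gene symbol, and are 6 of the 14925 genes and 15 of the 30622 annotated 3′-UTR regions with a symbol; the 15 regions have 13 distinct sets of coordinates. Prkar2b was chosen by its ratio of wildtype (WT) over knockout (KO) reads in the CPEB4 immunoprecipitate after LPS, which was among the highest of all genes, and the other subunits were taken because of it. That ratio is therefore given as a description. Everything that uses either library of that pair, alone or with others, carries the same choice.

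The data are RNA-immunoprecipitation sequencing (RIP-seq) of bone marrow-derived macrophages (BMDMs), grown for 7 days from the femurs of adult C57BL/6J 129 mice in L-cell conditioned medium. CPEB4 binds cytoplasmic polyadenylation elements (CPEs), U-rich stretches of mRNA 3′-UTRs, and the comparison asks which mRNAs an anti-CPEB4 antibody recovers from WT cells beyond what it recovers from Cpeb4 KO cells. WT cells (labelled 76) and Cpeb4 KO cells (labelled 73) were left untreated or given 10 ng/ml lipopolysaccharide (LPS) for 9 h. LPS is the bacterial cell wall component that activates macrophages. The labels do not say whether these numbers stand for mice or for cultures. After formaldehyde crosslinking, each genotype and treatment gave a library of antibody-bound RNA (RIP) and one of total lysate RNA (Input, with ribosomal RNA depleted). The 16 samples are 8 libraries on 2 lanes, 1 for each genotype, treatment and assay, and there was no replicate. A difference between genotypes and a difference between the particular cells labelled 76 and 73 cannot be told apart.

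Ratios below are log2 ratios of reads scaled to the 3′-UTR reads of each library, after adding 1 read to each side, with a 95% interval that covers counting error only. A gene is called higher or lower where the ratio is past 2-fold (a log2 ratio over 1 or under -1) with at least 10 reads in the pair. No p-value is given, as no test over samples is possible. Each gene is represented by the region with the most reads over all libraries, and its level in a library is given in RPM, reads scaled to 1000000 3′-UTR reads. Levels compared between genes are RPM per kb of that region, which are not the RPKM values of the deposited tables. In these bulk lysates, fewer cells with a transcript and less transcript per cell cannot be told apart.

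PKA is a complex of regulatory and catalytic subunits, and cAMP binding to the regulatory subunits frees the catalytic ones to phosphorylate targets such as the transcription factor CREB. Type I regulatory subunits (Prkar1a, Prkar1b) are found largely in the cytosol, while type II subunits (Prkar2a, Prkar2b) are mostly tethered to membranes and organelles by A-kinase anchoring proteins. In macrophages, cAMP signalling through PKA is known to dampen the output of inflammatory cytokines after LPS.

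The reads of a library, summed over the 3′-UTR regions, came to between 467696 and 2492300; overlapping regions count a read more than once, so that these sums are used as a scale and not as a depth. The untreated KO RIP was the shallowest, and 3 reads in it, the number that a count of 0 still allows, equal 6.41 RPM. With 1 region per gene, the reads equalled 15.8% and 19.0% of all aligned reads in the KO RIPs, untreated and with LPS, against 28.8% and 42.3% in the WT RIPs and 27.1% to 30.5% in the Inputs. Scaling to all aligned reads instead would raise every WT over KO RIP ratio by 0.84 (untreated) or 1.14 (LPS) on the log2 scale. Cpeb4 itself had 130 and 136 RPM in the WT Inputs (untreated and LPS) and 52.0 and 52.6 in the KO Inputs. Whether its counted region lies in the deleted part is not given in the sources used here, so that this checks the labels only in part. The 8 macrophage markers examined all had reads in every library, with a summed level of 2539 to 3557 RPM in the Inputs. Of 8 markers of other cell types, 6 were in the table, and all 6 were at 0 in both untreated Inputs; their sum reached 7.38 to 15.97 RPM in the Inputs with LPS. In the RIPs, 4 of the 8 macrophage markers were past 2-fold lower in WT than in KO untreated, and 5 with LPS. Of all genes, 14.2% and 17.5% were lower. None of the 8 macrophage markers was past 2-fold between the Inputs of the genotypes, against 2.43% to 4.79% of genes in either direction. Of the markers of other cell types, only Pecam1 had enough reads, and only with LPS. Its WT over KO Input ratio was -1.28 (-2.25 to -0.31), from 12 and 24 reads. The shift of 0.84 or 1.14 with all aligned reads applies to the markers' RIP ratios too. The part of these marker differences in the RIP ratios below was not tested.

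The 3′-UTR region of Prkar2b is 1913 bases long (mm10, chr12:31958476-31960388, minus strand). It held 5 consensus CPEs, searched as TTTTAT or TTTTAAT on the transcript strand with overlaps counted. Of 1511 regions within 10% of this length, 17.9% held as many or more, and the median was 2. All 5 are shown because they are the letters that CPEB4 is known to bind, with 30 bases around each in transcript orientation and the CPE in capitals, taken from the GRCm38.p6 sequence (the same build as mm10).
Prkar2b CPE 1, chr12:31959933-31959962: gtattccattctTTTTATaattcatcagat
Prkar2b CPE 2, chr12:31959807-31959836: aattttgaaattTTTTATatttttgcaata
Prkar2b CPE 3, chr12:31959619-31959648: ctgcttaccattTTTTATttagcaacctgc
Prkar2b CPE 4, chr12:31959103-31959132: acagatgcttatTTTTATggcaaatatgat
Prkar2b CPE 5, chr12:31958476-31958505: ccttataataaagcacacTTTTATaataaa

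The last of these CPEs lies at the very end of the annotated region, with 6 bases to its end. Between it and the next polyadenylation hexanucleotide (AATAAA or ATTAAA) are 0 bases, and that AATAAA ends on the last base of the region. Another AATAAA, which ends 18 bases before the end of the region, lies upstream of this CPE. Which of them serves as the polyadenylation signal was not tested. CPEs near such a hexanucleotide are known to matter for cytoplasmic polyadenylation. The same 30 bases are shown again with the last hexanucleotide in capitals. Below it are the closest counterparts in the other subunits, again with the CPE in capitals.
Prkar2b hexanucleotide, chr12:31958476-31958505: ccttataataaagcacacttttatAATAAA
Prkacb CPE, chr3:146729605-146729634: tgaaaatgtgttTTTTAATtcatcaataac
Prkar1a CPE, chr11:109669125-109669154: ttggctatctttTTTTATatttaaaaaaat
Prkaca CPE, chr8:83995820-83995849: tggaaagggagaTTTTATgacctgtacaga

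Prkacb (chr3:146729579-146732587, minus strand, 3009 bases) held 7 consensus CPEs, the most of the 6 genes, and the one shown ends 17 bases before an ATTAAA. Of regions of similar length, 18.2% held as many or more. Prkar1a (chr11:109667603-109669656, plus strand, 2054 bases) held 2, and the one shown ends 9 bases before a hexanucleotide that lies well inside the region. Prkaca (chr8:83995418-83996445, plus strand, 1028 bases) held 1, which is 582 bases from the next hexanucleotide. Prkar2a (chr9:108746995-108749512, plus strand, 2518 bases) and Prkar1b (chr5:139017306-139018658, minus strand, 1353 bases) held 0, while 87.7% and 69.4% of regions of their length held at least 1. The counted region of Prkar2a leaves out 927 bases of the 3′-UTR that GENCODE M21 annotates, which were not searched.

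The type II subunits also differed in other letters of their 3′-UTRs. The G-variant of the CPE (TTTTGT) occurred 6 times in Prkar2a and 2 times in Prkar2b, and 13.7% and 55.0% of regions of similar length held as many or more. Prkar1a held 3 G-variants, Prkacb and Prkaca 1 each and Prkar1b 0. Other, non-consensus CPE variants, which the paper also counts as CPEs, occurred 4 times in Prkar1a, 3 times in Prkacb and 1 time in Prkaca. Of regions of similar length, 5.90%, 27.9% and 40.9% held as many or more. Prkar2b, Prkar2a and Prkar1b held 0 of these other variants, so that consensus CPEs alone do not give the full CPE content. AUUUA pentamers, searched as ATTTA and known as the core of AU-rich elements, occurred 7 times in Prkar2b, 4 times in Prkar2a, 8 times in Prkar1a, 6 times in Prkacb, 3 times in Prkaca and 1 time in Prkar1b. The region of Prkar2b was 35.7% GC, that of Prkar2a 47.7%, and the median of regions of similar length was 43.6% for both. In the map of motifs along the regions, the CPEs of Prkar2b and Prkacb spread over most of the 3′-UTR and each gene has one at its end. A match of letters is not evidence of binding.

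**Figure D1:**
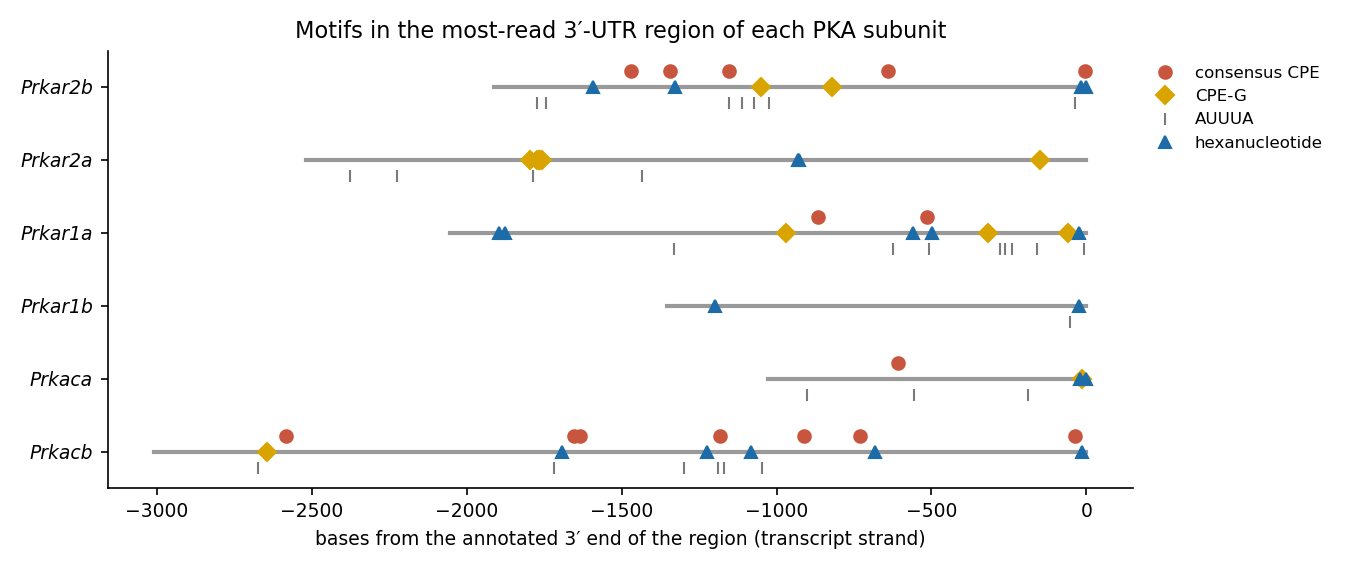
Position of consensus CPEs (red), the CPE G-variant (yellow), AUUUA pentamers (grey) and polyadenylation hexanucleotides (blue) along the most-read 3′-UTR region of each PKA subunit, in bases from the annotated 3′ end; other CPE variants are not drawn. Prkar2b has 5 consensus CPEs and Prkacb 7, with 1 each at the 3′ end, whereas Prkar2a and Prkar1b have 0.

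In the lysates of untreated macrophages, Prkar2b was a minor regulatory subunit. It had 5 reads in the WT Input and 13 in the KO Input without LPS, and 38 and 33 with LPS. These correspond to levels of 2.81, 5.13, 10.5 and 11.5 RPM per kb. Both Inputs with LPS were thus above both untreated ones, and the counting intervals of the genotypes overlapped in both treatments.

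Prkar2a, the other type II subunit, had 132 reads in the untreated WT Input and 225 in the untreated KO Input, and 115 and 80 with LPS. Its levels were 56.4, 67.4, 24.1 and 21.2 RPM per kb, so that both untreated Inputs were above both with LPS. Prkar1a, the ubiquitous type I subunit, was the highest of the 6 in all 8 libraries, at 181 to 203 RPM per kb in the Inputs. Prkar1b, known mainly from the nervous system, had 6, 5, 4 and 1 reads in the Inputs in the same order and 3, 2, 1 and 0 in the RIPs. The 0 reads in the KO RIP with LPS allow up to 3.44 RPM.

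The catalytic subunits lay between. Prkaca, the main catalytic isoform of most tissues, had 154 and 217 reads in the untreated Inputs (WT and KO) and 235 and 176 with LPS, which are levels of 161, 159, 120 and 114 RPM per kb. Prkacb, its close paralog, had 225 and 322 reads untreated and 291 and 233 with LPS, or 80.5, 80.7, 51.0 and 51.5 RPM per kb. In every Input the order was Prkar1a, Prkaca, Prkacb and Prkar2a, followed by Prkar2b and Prkar1b. These 2 changed places only in the untreated WT Input, where their counting intervals overlap (0.91 to 6.57 and 1.75 to 10.4 RPM per kb).

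**Figure D2:**
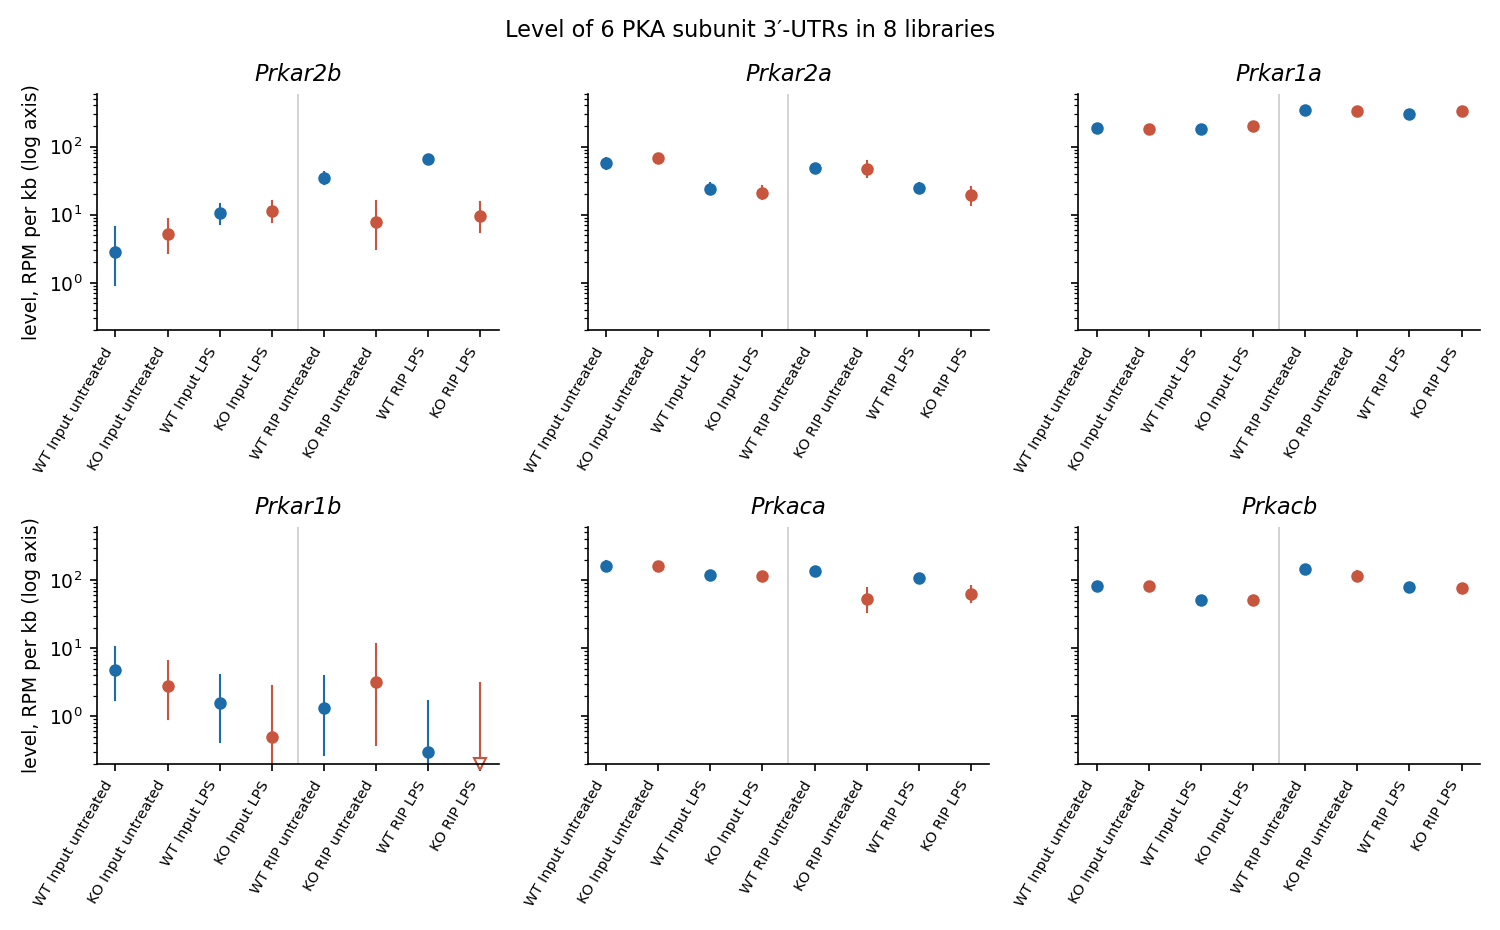
Level of each PKA subunit in the 8 libraries, in RPM per kb on a log axis, with exact 95% binomial intervals. WT is blue and KO red, with Inputs left and RIPs right of the grey line. The open triangle marks 0 reads, and intervals that reach below 0.2 are cut there. Prkar2b stands highest in the WT RIPs, at 34.8 untreated and 64.6 with LPS, while Prkar1a lies between 181 and 347 throughout.

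With LPS, the Input level of Prkar2b rose past 2-fold in both genotypes. The log2 ratio of LPS over untreated was 1.67 in WT (0.43 to 2.91) and 1.10 in KO (0.20 to 1.998), and both intervals are wide because of the 5 and 13 untreated reads. WT minus KO, the change differed by 0.57 (-0.96 to 2.10), an interval that includes 0. Prkar2a fell past 2-fold in both, with ratios of -1.23 in WT (-1.59 to -0.87) and -1.66 in KO (-2.03 to -1.29). The 2 type II subunits thus moved apart: Prkar2b minus Prkar2a, a difference in which library scaling cancels, was 2.90 in WT (1.61 to 4.19) and 2.76 in KO (1.79 to 3.73).

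The other subunits moved less. Prkar1a had ratios of -0.05 (-0.23 to 0.13) in WT and 0.16 (-0.01 to 0.33) in KO. Prkaca had -0.42 (-0.72 to -0.13) and -0.48 (-0.77 to -0.19), and Prkacb -0.66 (-0.91 to -0.41) and -0.65 (-0.89 to -0.40), so that both catalytic subunits were lower with LPS by less than 2-fold and by more than counting error. Prkar1b passed the call in WT alone (-1.52, -3.17 to 0.14), on 4 and 6 reads.

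In WT, 1 of 6 subunits was past 2-fold higher with LPS, against 14.8% of 8163 genes with enough reads, and 2 were lower, against 17.5%. In KO, 1 of 5 was higher (13.5% of 8250 genes) and 1 lower (21.2%). In WT, 600 of the 8163 genes had a higher ratio than Prkar2b, and 7109 had a higher one than Prkar2a. With a minimum of 50 reads in the pair Prkar2b would not be counted, since it had 43 and 46.

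As a share of the type II level (Prkar2b plus Prkar2a, each per kb), Prkar2b was 4.75% in the untreated WT Input and 7.07% in the untreated KO Input, and 30.3% and 35.2% with LPS. As a share of all 4 regulatory subunits it was 1.11% and 2.002% untreated and 4.79% and 4.87% with LPS. Prkar1a made up 70.6% to 85.9% of the regulatory level in the Inputs.

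**Figure D3:**
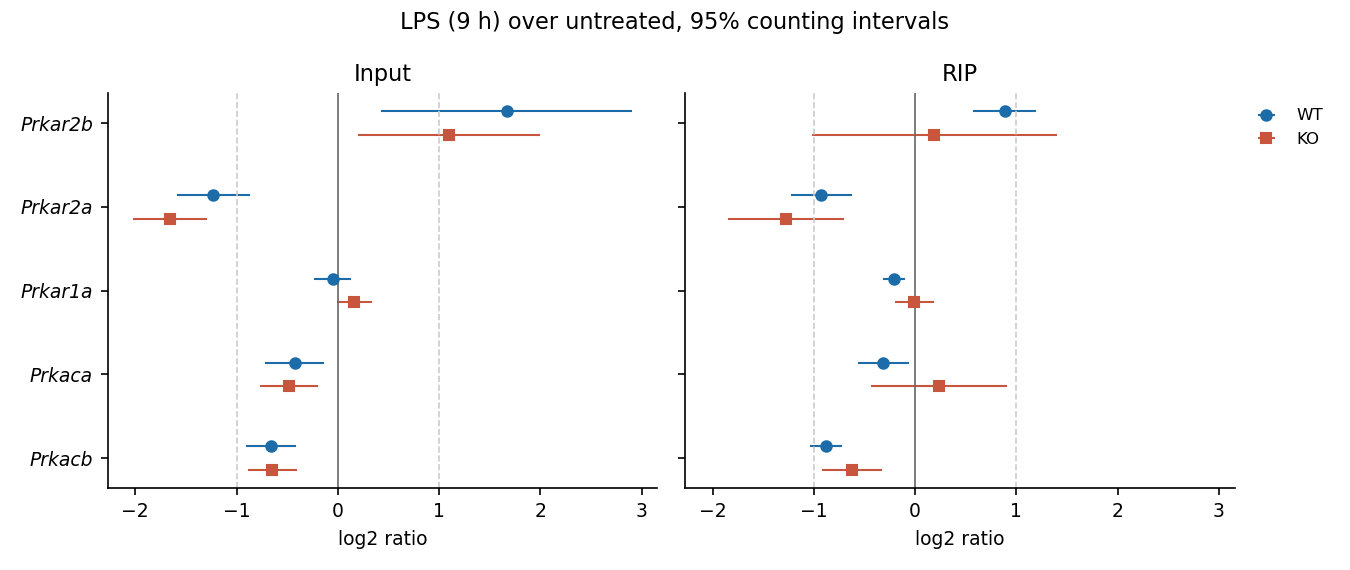
Log2 ratio of LPS over untreated for 5 PKA subunits in the Inputs (left) and the RIPs (right), WT in blue and KO in red, with 95% counting intervals; dashed lines mark 2-fold, and Prkar1b is left out for its few reads. In the Inputs Prkar2b lies right of 0 (1.67 and 1.10) and Prkar2a left of it (-1.23 and -1.66) in both genotypes.

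In the CPEB4 immunoprecipitates, Prkar2b was set apart from the other regulatory subunits. It had 111 reads in the untreated WT RIP and 7 in the untreated KO RIP, and 308 and 16 with LPS. These were 66.6, 15.0, 124 and 18.4 RPM, so that both WT RIPs were above both KO RIPs and above all 4 Inputs. The untreated ratio of WT over KO, from libraries that did not serve to pick the gene but carry the same number labels, was 1.97 (0.94 to 3.01). It was exceeded by 93 of 8064 genes. With LPS, the pair through which Prkar2b was picked, the ratio was 2.67 (1.96 to 3.37), exceeded by 8 of 8310 genes. LPS minus untreated, the ratios differed by 0.69 (-0.56 to 1.95), so that no difference was detectable at this depth.

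Prkar2a had 200 and 55 reads untreated (WT and KO) and 157 and 42 with LPS. Its ratios of 0.01 (-0.42 to 0.44) and 0.36 (-0.12 to 0.85) had intervals that include 0. Prkar1a had 1186 and 324 reads untreated and 1538 and 601 with LPS, with ratios of 0.04 (-0.14 to 0.21) and -0.16 (-0.30 to -0.03). On the scale of all aligned reads the sign of the latter turns and these 4 ratios become 0.85, 1.502, 0.88 and 0.98 in the same order. The subunits' differences from Prkar2b do not depend on the scale: untreated, Prkar2b exceeded Prkar2a by 1.96 (0.84 to 3.08) and Prkar1a by 1.94 (0.89 to 2.99).

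Of the catalytic subunits, Prkaca was also recovered more in WT. It had 231 and 25 reads untreated and 278 and 56 with LPS, with ratios of 1.32 (0.74 to 1.91) and 0.78 (0.36 to 1.19). Prkacb had 738 and 163 reads untreated and 600 and 197 with LPS, with ratios of 0.34 (0.10 to 0.58) and 0.09 (-0.15 to 0.32). Untreated, Prkar2b exceeded Prkacb by 1.64 (0.57 to 2.70), while its difference from Prkaca, 0.65 (-0.54 to 1.84), had an interval that includes 0. Prkacb, with the most consensus CPEs of the 6 genes, thus had a lower untreated ratio than Prkaca, which has 1.

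Untreated, 2 of the 5 subunits with enough reads were past 2-fold higher in the WT RIP (Prkar2b and Prkaca), against 9.6% of 8064 genes, and 0 were lower, against 14.2%. With LPS, 1 of 5 (Prkar2b) was higher, against 9.71% of 8310 genes, from which nothing is read as this pair chose the gene, and 0 were lower (17.5%). In the plot of both ratios over all genes, Prkar2b lies at the upper right edge of the cloud and Prkar1a, Prkar2a and Prkacb near its centre.

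**Figure D4:**
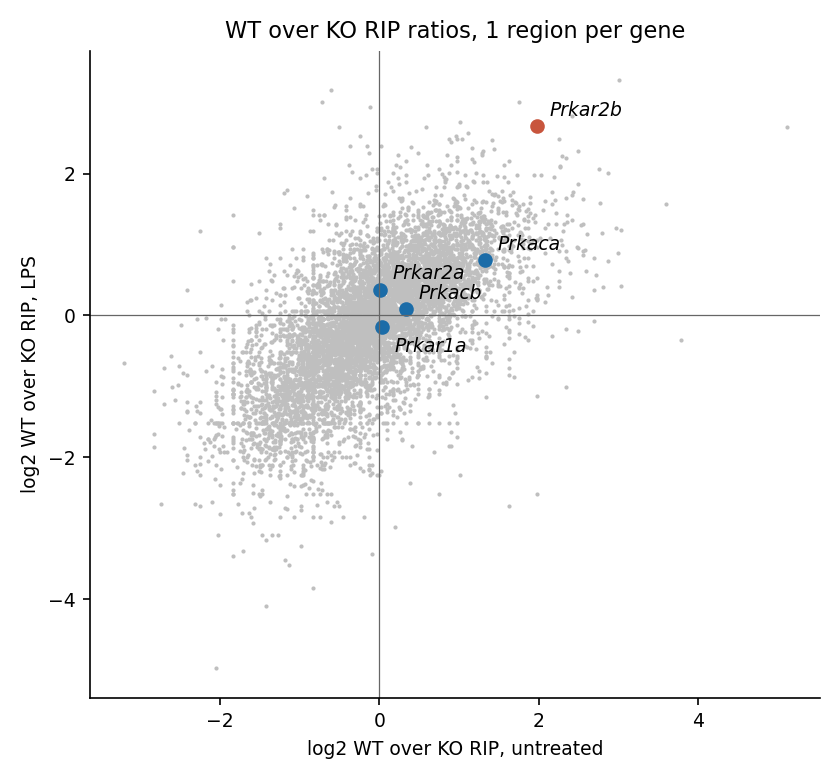
Log2 ratio of WT over KO RIP untreated (horizontal) against the same with LPS (vertical), 1 point per gene with at least 10 reads in both pairs. Prkar2b (red) lies at 1.97 and 2.67 and Prkaca at 1.32 and 0.78, while the other subunits (blue) are within 0.36 of 0 on both axes.

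No such difference between genotypes was detectable in the Inputs. The ratio of WT over KO Input for Prkar2b was -0.71 (-2.09 to 0.67) untreated and -0.14 (-0.80 to 0.52) with LPS. For the other 4 subunits with enough reads in both treatments all intervals included 0, and ratios lay between -0.25 and 0.18. Of the 6 subunits, 0 were past 2-fold in either direction, against 2.43% of genes higher and 4.79% lower untreated; with LPS these shares were 3.21% and 2.43%, and 5 subunits had enough reads.

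After subtraction of the Input ratio, the untreated RIP ratio of Prkar2b was 2.68 (0.96 to 4.41), which rests on 5 and 13 Input reads, and that with LPS was 2.81 (1.84 to 3.77). Prkaca had 1.30 (0.65 to 1.96) and 0.70 (0.20 to 1.19). The intervals of Prkar2a, Prkar1a and Prkacb included 0 in both treatments. The corrected ratio was past 2-fold higher for 2 of 5 subunits untreated (14.7% of genes) and for 1 of 5 with LPS (11.6%). In both treatments 0 were past 2-fold lower (17.4% and 20.9% of genes). The count with LPS rests on the RIPs that picked Prkar2b, and nothing is read from it.

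**Figure D5:**
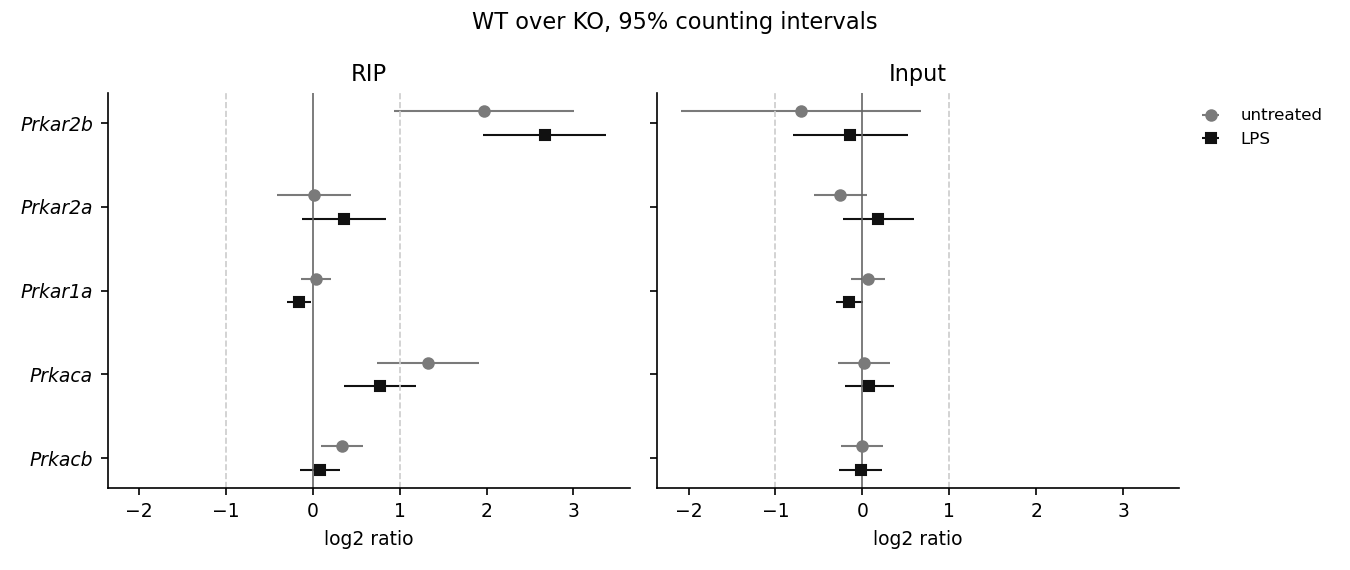
Log2 ratio of WT over KO for 5 PKA subunits in the RIPs (left) and Inputs (right), untreated in grey and with LPS in black, with 95% counting intervals; dashed lines mark 2-fold, and Prkar1b is left out for its few reads. Prkar2b (1.97 and 2.67) and Prkaca (1.32 and 0.78) lie right of 0 in the RIPs, and in the Inputs no interval lies wholly past 2-fold.

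Within a genotype, the ratio of RIP over Input told the same genes apart in another way. In WT, Prkar2b had a ratio of 3.38 (2.195 to 4.56) untreated, exceeded by 122 of 8359 genes, and of 2.59 (2.11 to 3.07) with LPS. The ratios with LPS use the RIPs that served to pick the gene. In KO, Prkar2b had 0.70 (-0.56 to 1.95) and -0.21 (-1.05 to 0.63). In WT, 1 of 5 subunits was past 2-fold higher in each treatment, against 25.5% (untreated) and 23.5% (LPS) of genes, and 0 were lower, against 21.5% and 26.9%. In KO, 0 were higher (18.2% and 17.2% of genes), and 1 was lower untreated and 0 with LPS (12% of genes in both).

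Prkar1a was above its Input in both genotypes: its ratios were 0.87 and 0.72 in WT and 0.90 and 0.73 in KO, untreated and with LPS. Prkacb likewise had ratios of 0.87 and 0.65 in WT and 0.53 and 0.54 in KO. Prkaca was close to its Input in WT (-0.26 and -0.15, with intervals that include 0) and below it in KO, at -1.56 (-2.15 to -0.98) and -0.85 (-1.28 to -0.42). Prkar2a was at -0.25 and 0.05 in WT and at -0.51 and -0.13 in KO. These levels against the Input depend on the scale: with all aligned reads, every ratio shifts by 0.06 and 0.51 in WT and by -0.77 and -0.68 in KO, untreated and with LPS. Prkar2b in KO would then be at -0.07 and -0.90, Prkacb in KO at -0.24 and -0.14, and Prkaca in WT with LPS at 0.36.

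The mix of type II subunits in the RIPs differed between genotypes too. Prkar2b was 42.2% of the type II level in the untreated WT RIP and 72.1% in the WT RIP with LPS, against 14.3% and 33.4% in the KO RIPs. The WT RIP with LPS was the only one of the 8 libraries in which Prkar2b was above Prkar2a per kb, with a log2 ratio of 1.36 (1.09 to 1.64). In the others this ratio ranged from -4.07 to -0.45. The WT RIP with LPS also served to pick Prkar2b, so that nothing is read from its place there. Between the untreated WT RIP and that with LPS, Prkar2b was higher by 0.88 (0.57 to 1.19) and Prkar2a lower, at -0.93 (-1.23 to -0.63). None of 5 subunits was past 2-fold between these libraries, against 12.1% of genes higher and 21.9% lower. Between the KO RIPs, 0 of 5 were higher (14.1%) and 1, Prkar2a at -1.28 (-1.85 to -0.71), was lower (21.7%).

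The peak scores that the authors' peak caller gave each RIP against its Input covered fewer subunits. In the WT RIP with LPS, Prkar2b had a score of 1088, Prkacb of 561 and Prkar1a of 188, whereas Prkar2a, Prkar1b and Prkaca had no peak. Of all genes, 15.5% had a peak there and 216 had a higher score than Prkar2b. That library also served to pick Prkar2b, and its score is a description. In the untreated WT RIP only Prkacb of the 6 had a peak, with a score of 212, although Prkar2b had its high ratio there too. None of the 6 had a peak in a KO RIP. Prkaca thus differed between the RIPs without a peak over its Input.

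The rest of the cAMP pathway was followed in a list of 63 genes from receptors to CREB, of which 55 were in the table. In the untreated RIPs, 4 of 36 genes with enough reads were past 2-fold higher in WT and 3 lower (9.6% and 14.2% of all genes), with a median ratio of 0.31 against -0.10 over all genes. With LPS, 4 of 37 were higher and 5 lower (9.71% and 17.5% of all genes), with a median of 0.22 against -0.04. The counts higher were thus near the background in both treatments. Pkig, a peptide inhibitor of the PKA catalytic subunits, had 79 reads in the untreated WT RIP and 6 in KO, with a ratio of 1.68 (0.57 to 2.80). Its WT Input was also the higher one, with 74 reads against 37 in KO and a ratio of 1.49 (0.93 to 2.06). After subtraction of the Input ratio, Pkig was at 0.19 (-1.06 to 1.44), an interval that includes 0. Creb1, the transcription factor that PKA phosphorylates, had 792 and 100 reads untreated, with a ratio of 1.14 (0.84 to 1.44).

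With LPS, the largest ratio of the list was that of Pde8a, a cAMP-degrading phosphodiesterase, at 1.95 (1.10 to 2.81) from 132 and 11 reads. Pde10a, another phosphodiesterase, had 1.23 (0.09 to 2.38) from 46 and 6 reads. It was higher in the WT Input with LPS too, at 0.95 (0.11 to 1.79). After subtraction of the Input ratio, Pde10a was at 0.28 (-1.14 to 1.70), an interval that includes 0. Atf1, a CREB family factor, had a RIP ratio of 1.03 (0.61 to 1.45). Adcy7, an adenylyl cyclase that makes cAMP, was lower in WT in both treatments, at -1.204 (-1.54 to -0.87) and -1.05 (-1.46 to -0.65). Gnas, the stimulatory G protein subunit, was lower too, at -1.01 and -1.08; its region overlaps Gm20721 on the other strand. The counting is not stated to use strand, so that the reads of this pair cannot be told apart. On the scale of all aligned reads none of the list would be past 2-fold lower in the RIPs.

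In the WT Inputs, 7 of 37 genes of the pathway were past 2-fold higher with LPS and 8 lower, with a median ratio of -0.35 against -0.08 over all genes. These counts were near the background of 14.8% and 17.5% of all genes. In KO, 7 of 37 were higher and 14 lower, against 13.5% and 21.2% of all genes, with a median ratio of -0.67 against -0.18. The adenosine receptor Adora2a, which couples to cAMP production, went from 0 reads in both untreated Inputs to 233 in WT and 141 in KO. Set against 3 reads per library, it was at least 38.0-fold higher in WT and at least 41.5-fold higher in KO. The adenosine receptor Adora2b had a ratio of 2.83 (1.37 to 4.29) in WT and 3.57 (1.50 to 5.65) in KO.

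Of 8 phosphodiesterases with enough reads, 3 were past 2-fold higher with LPS in both genotypes (Pde4b, Pde7b and Pde10a) and 1 was lower (Pde3b). Of all genes, 14.8% (WT) and 13.5% (KO) were higher and 17.5% and 21.2% lower. Pde4b, known to be induced by LPS in macrophages, had a ratio of 3.56 (2.73 to 4.39) in WT and 2.22 (1.56 to 2.88) in KO, and Pde7b 2.48 (1.59 to 3.37) and 2.17 (1.52 to 2.81). Pde10a had 0 reads in both untreated Inputs and 38 (WT) and 15 (KO) with LPS. Pde3b, named here to complete the count, had -1.32 (-2.59 to -0.05) in WT from 8 and 10 reads, LPS and untreated, and -1.83 (-3.06 to -0.61) in KO from 6 and 21. Prkx, a kinase related to the PKA catalytic subunits, had 1.48 (1.10 to 1.86) in WT and 1.54 (1.26 to 1.82) in KO. Among genes that fell was Akap11, an anchoring protein, at -1.64 (-2.25 to -1.04) in WT and -1.95 (-2.57 to -1.33) in KO. The inhibitor Pkib fell too, at -1.21 (-2.02 to -0.40) in WT and -1.73 (-2.61 to -0.86) in KO.

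Genes were also ranked by how closely their scaled log2 reads followed those of Prkar2b over the 8 libraries. Compared were 3828 genes with at least 50 reads in the WT RIP with LPS and 10 in each Input. This minimum favours genes with reads in the library that served to pick Prkar2b. Prkar2b itself, with 5 reads in the untreated WT Input, did not meet it. The closest were Cpne1 (Pearson r = 0.983), Gm28036 (0.982), Chfr (0.981), Notch1 (0.979) and Jag1 (0.978). Gm28036 overlaps Cpne1 on the same strand and shares its reads, and Notch1 overlaps other genes on the opposite strand. These 8 points share 4 lysates and differ in depth, and the values are a description. Jag1, a Notch ligand, had 144 and 13 reads in the untreated RIPs (WT and KO) and 415 and 42 with LPS. The other PKA subunits were less alike, at 0.58 for Prkar1a, 0.25 for Prkacb, -0.11 for Prkaca, -0.40 for Prkar2a and -0.72 for Prkar1b. Prkar1b did not meet the minimum of reads either.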

How the data were processed

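The 8 libraries were run on lanes 7 and 8; the deposited tables hold both lanes summed. Per the methods and the submitters' processing notes, the authors mapped the reads on mm10 with Bowtie2 (2.2.2), counted them over Ensembl 3′-UTRs and called peaks of each RIP against its Input with MACS (1.4.2). The read counts per region, as deposited, were used raw; the deposited RPKM served only to read back each library's total, and the deposited scores are the highest MACS peak score over a region (0 without a peak). Their fold changes and p-values were not used.

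Of 31117 regions, 495 without a symbol (0.902% to 1.04% of reads) were left out. Ratios were computed in Python 3.11.15 with numpy 2.4.6 and pandas 2.3.3, tested on simulated data, and TMM factors with edgeR 4.0.16. Pairs with at most 3 reads in each library got no ratio. Intervals cover counting error only. The 30622 regions overlap, so that reads of nested isoforms were counted more than once, in the library sums too. Motifs were searched in GRCm38.p6; consensus CPE counts equal the deposited ones in 100% of 26860 distinct regions. Named pathway genes are those with the largest ratios past 2-fold and at least 50 reads in the pair, up to 6 per comparison, of which some are not reported here. The members and gene lists were chosen with earlier results of these data known. Alternatives were other scalings, 0.1 reads added, other read minimums and regions, and the study's criteria applied to ratios on the 3′-UTR scale.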

Additional observations from a re-analysis of the deposited data

How the results depend on the processing

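For Prkar2b, the WT over KO ratios (RIP, Input and input-corrected) and the LPS over untreated Input ratios had the same sign under each alternative run, and its WT over KO RIP ratio was over 1 in all of them. Its RIP over Input ratio in untreated KO, 0.70, was -0.07 on the scale of all aligned reads, with intervals that include 0 on both. With the library totals read back from the RPKM, which include reads outside 3′-UTRs, its ratio with LPS was 3.81 and the input-corrected one 4.01, 4 rather than 1 of the subunits were past 2-fold higher in the WT RIP with LPS, and the pathway list had 21 (untreated) and 28 (LPS) genes higher and 0 lower in both. These totals also moved 16 ratios of the other subunits, all WT over KO RIP or input-corrected, past their counting interval. With median-of-ratios factors 7 pathway genes were higher in the WT RIP with LPS. Median-of-ratios and TMM factors, 0.1 reads added, the longest region, rows without a symbol, and summed regions and totals over 1 region per gene (both chosen after seeing the data) moved no subunit ratio past its counting interval, except that of Prkar1a with LPS in the KO Input, which was 0.34 (0.17 to 0.51) with TMM factors.

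Counts depended on the minimum of reads. With at least 50 reads, 0 subunits were higher and 1 lower with LPS in the WT Input and 0 higher in KO; the pathway list had 2 higher in the untreated WT RIP, 3 lower in that with LPS, 0 lower in the untreated WT Input against KO, and 3 (WT) and 8 (KO) lower with LPS. With no minimum, 1 subunit was lower in the untreated WT RIP and 2 with LPS in the KO Input, and the list had 16 (untreated) and 15 (LPS) lower in the WT RIP, 4 higher in the untreated and 1 higher and 1 lower in the LPS-treated WT Input against KO, and 20 lower with LPS in WT. Requiring an interval without 0 left 1 subunit lower with LPS in the WT Input, since Prkar1b drops out.

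The study's criteria on p and log2 ratio were also applied to every region of a gene, but to ratios on the 3′-UTR scale. The study set them on RPKM ratios and also used a peak score. On the scale of all aligned reads, that of the RPKM, the WT over KO RIP ratios with LPS were 1.502 for Prkar2a, 1.23 for Prkacb and 0.98 for Prkar1a. On the 3′-UTR scale, 2 subunits (Prkar2b and Prkaca) were higher by these criteria in the WT RIP with LPS. In each treatment 1 was lower, which was Prkar1a through its separate region of 390 bases. With LPS, 0 were higher and 2 lower in the KO Input. The list had 7 genes higher in the WT RIP with LPS, and 2 higher and 1 lower in the WT Input with LPS against KO. The cause of these shifts was not tested beyond what each setting changes by construction. No paired analysis was possible because each group is 1 library and the result comes from no test. The 5 to 38 Input reads of Prkar2b limit what can be said of its level in the lysate.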

Other observations

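Isoform regions within the PKA subunit genes gave values outside the comparisons above. A transcript of Prkar2b ends in a separate annotation of 246 bases (chr12:31958476-31958721) that is the last 12.9% of the full region. It held 24 of 111 reads in the untreated WT RIP, or 21.6% (Wilson interval 15.0% to 30.2%), and 46 of 308 with LPS, or 14.9% (11.4% to 19.3%). The Inputs had 0 to 4 reads there and the KO RIPs 1 each, too few to compare. Prkacb has a stretch of 286 bases beyond its shorter annotated 3′-UTR, which is 9.50% of the full region and holds the last of its consensus CPEs. It took 7.18% of the Prkacb reads in the untreated WT RIP (5.53% to 9.27%) and 6.33% with LPS (4.65% to 8.57%), against 1.33% (0.45% to 3.85%) and 0.69% (0.19% to 2.47%) in the WT Inputs. In KO the shares were 6.13% (3.37% to 10.9%) and 3.55% (1.73% to 7.15%) in the RIPs and 1.24% (0.48% to 3.15%) and 3.004% (1.46% to 6.07%) in the Inputs. The RIP and Input intervals did not overlap in WT in either treatment and in untreated KO, whereas they overlapped in KO with LPS, and the shares of the WT and KO RIPs overlapped in both.

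Prkar1a has a separate 3′-UTR region of 390 bases (chr11:109661364-109661753) upstream of its main one. Its WT over KO RIP ratio was -1.45 (-2.49 to -0.40) untreated, from 16 and 12 reads, and -1.52 (-2.23 to -0.80) with LPS, from 30 and 30 reads, whereas the main region had 0.04 and -0.16. On the scale of all aligned reads the separate region had -0.60 and -0.38. Its WT over KO Input ratio was -0.21 (-1.01 to 0.59) untreated and -0.67 (-1.27 to -0.06) with LPS, so that it was lower in WT in the LPS-treated lysate too.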
